A study of Mus musculus with 6 samples.

Results

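The circadian clock genes and the proline and acidic amino acid-rich basic leucine zipper (PAR bZIP) factors were examined in injured mouse hepatocytes treated with small-molecule cocktails. The set comprised 10 genes, taken by their symbols from the 52323 genes of the deposited count table: the period genes Per1, Per2 and Per3, the cryptochromes Cry1 and Cry2, the activator Clock, the PAR bZIP activators Dbp, Tef and Hlf, and the repressor Nfil3. All 10 were among the 19135 genes that passed the filter on low counts. The cells were dHeps, hepatocytes from the damaged livers of CCl4-treated mice, in which an adeno-associated virus carrying Cre under the liver-specific thyroxine-binding globulin promoter had switched on a Rosa tdTomato reporter (AAV-TBG-Cre:Rosa-LSL-tdTomato). RNA-seq was performed after 16 days of culture in 3 groups of 2 libraries, all kept in a maintenance medium without serum and all carrying the virus, the reporter and the injury. The DMSO group received solvent. The 3C group received 50 µM CID755673, a protein kinase D inhibitor, 2 µM GSK429286A, also a kinase inhibitor, and 5 µM ETC-1002, known as bempedoic acid. The 5C group received the same 3 compounds plus 5 µM salidroside and 2 µM forskolin, which activates adenylate cyclase and raises cAMP. There was no undamaged group in this RNA-seq set. The study's methods describe adult mice of both sexes for this injury and call replicates biological, but the labels give no age or sex for a library and do not say whether the 2 libraries of a group came from separate animals, so p-values measure the spread between these libraries. The hour of harvest and any synchronisation of the cells were not given in the sources used here, and each library is 1 time point.

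The clock is a loop of transcription and translation with a daily period. CLOCK pairs with BMAL1 (the Arntl gene) and activates genes that carry E-box elements, among them the Per and Cry genes, whose proteins return to repress the CLOCK and BMAL1 pair, while REV-ERB and ROR nuclear receptors act on Arntl. Dbp, Tef and Hlf are outputs of this loop: their proteins bind D-box elements as activators, NFIL3 (E4BP4) binds the same elements as a repressor, and in liver these factors are known for their control of detoxification, haem synthesis and the xenobiotic receptor CAR. Per1 is also a target of CREB and of the glucocorticoid receptor.

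Library totals were 65916573 to 69245895 counts, the largest 1.05 times the smallest. The labelled cell type was checked against its markers. The hepatocyte markers, 11 of 12 listed genes found, summed to 2845 to 3135 CPM in DMSO, 13645 to 14179.7 CPM in 3C and 13585 to 18623 CPM in 5C, and all 11 rose in both cocktails against DMSO. Macrophage markers were also abundant. The 14 of them summed to 12365 to 13437 CPM in DMSO, 4226 to 4231 CPM in 3C and 2791 to 2885 CPM in 5C, with Adgre1 at 411 and 431 CPM in DMSO, 125 and 132 CPM in 3C, and 83.4 and 82.8 CPM in 5C. Sums over lists of different genes do not give the share of each cell type, and are read here only between groups. In each cocktail 12 of these 14 fell against DMSO and 1, Cd14, rose, and in 5C against 3C 10 fell. Mesothelial markers (5 genes) summed to 843 to 1024 CPM in DMSO, 1099.7 to 1225 CPM in 3C and 1947 to 2008 CPM in 5C. All 5 rose in 5C and 2 in 3C. Stellate cell and fibroblast markers (8 genes) summed to 5557 to 6428 CPM in DMSO, 4620.2 to 4669 CPM in 3C and 7187 to 7683 CPM in 5C, with 3 higher and 2 lower in 5C against DMSO, and 3 higher and 4 lower in 3C. Cholangiocyte markers (5 genes) summed to 2901 to 3383 CPM in DMSO, 3514 to 3696 CPM in 3C and 2385 to 2683 CPM in 5C, a sum set mostly by Spp1, and 4 of 5 rose and 1, Spp1, fell in 5C against DMSO, while 3 rose and none fell in 3C. The endothelial markers (9 genes, 8 tested, Clec4g under the detection floor of 12 counts in every library) summed to 428 to 452 CPM in DMSO, 183 to 218 CPM in 3C and 246 to 349.8 CPM in 5C, with Lyve1 making up most of the sum in DMSO and falling in both cocktails. Of the 8 tested, however, 5 rose and 1 fell in 5C, and 3 rose and 1 fell in 3C, and Cdh5 read 1.25 and 1.06 CPM in DMSO, 6.45 and 14.9 CPM in 3C, and 43.3 and 72.2 CPM in 5C. Of 4 T and B cell markers 3 were at 0 in every library. In such bulk samples, fewer cells of a type and less RNA per cell cannot be told apart. The part of these other cell types in the differences below was not tested.

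Hlf was the exception among the 10 genes: it rose more than 4-fold in both cocktails, whereas no other member changed by more than 0.482 on the log2 scale in any comparison. In 5C against DMSO, Hlf and Nfil3 rose, Clock fell, and the other 7 did not pass the test, so that 3 of 10 were called against 28.7% of all genes tested. In 3C against DMSO, Hlf and Per3 rose, Per1 and Clock fell, and 6 did not pass, so that 4 of 10 were called against 24.5% of all genes. In 5C against 3C, Nfil3 rose and the other 9 did not pass, 1 of 10 against 12.7% of all genes, 7.33% being higher. By direction, 2 members rose in each comparison with DMSO, beside 15.6% of all genes higher in 5C and 12.7% higher in 3C, and the members that fell stood beside 13.1% and 11.8% of all genes lower. The members' calls were thus near the background of each comparison. A call here is an adjusted p under 0.05 in edgeR's quasi-likelihood test with Benjamini-Hochberg adjustment over the 19135 genes, which gives every adjusted p below unless another test is named. Past 2-fold, Hlf was the 1 member called in each cocktail against the solvent, beside 11.7% and 9.45% of all genes, and no member was called in 5C against 3C, beside 3.01%. Without regard to the test, the libraries of the 2 groups did not overlap for 7, 8 and 6 members in 5C against DMSO, in 3C against DMSO and between the cocktails, where 63.1%, 61.3% and 58% of all genes did not overlap. At an unadjusted p under 0.05 the counts were 3, 7 and 3 of 10 members, beside 38.1%, 34.6% and 24.7% of all genes.

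The changes of the members were also small in size beside those of all genes tested, which were not matched for level. By mean CPM the members lay between the 42.1 (Hlf) and the 90.8 (Per1) percentile of the genes tested. The part of level in the comparison of sizes was not tested. Their median absolute log2 fold change was 0.21 in 5C against DMSO, 0.29 in 3C against DMSO and 0.15 in 5C against 3C, beside 0.35, 0.32 and 0.23 over all genes. Their signed medians were -0.06, -0.05 and -0.08. For 9 of 10 members, all but Hlf, the 95% interval of the log2 fold change lay within ±1 in both comparisons with DMSO, and for all 10 it did so in 5C against 3C, whereas 54%, 55.7% and 60.3% of all genes had intervals that narrow. A 2-fold difference was therefore outside the interval of every member but Hlf. Both cocktails are compared with the same 2 DMSO libraries, so the 2 comparisons are not independent of each other.

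**Figure D1:**
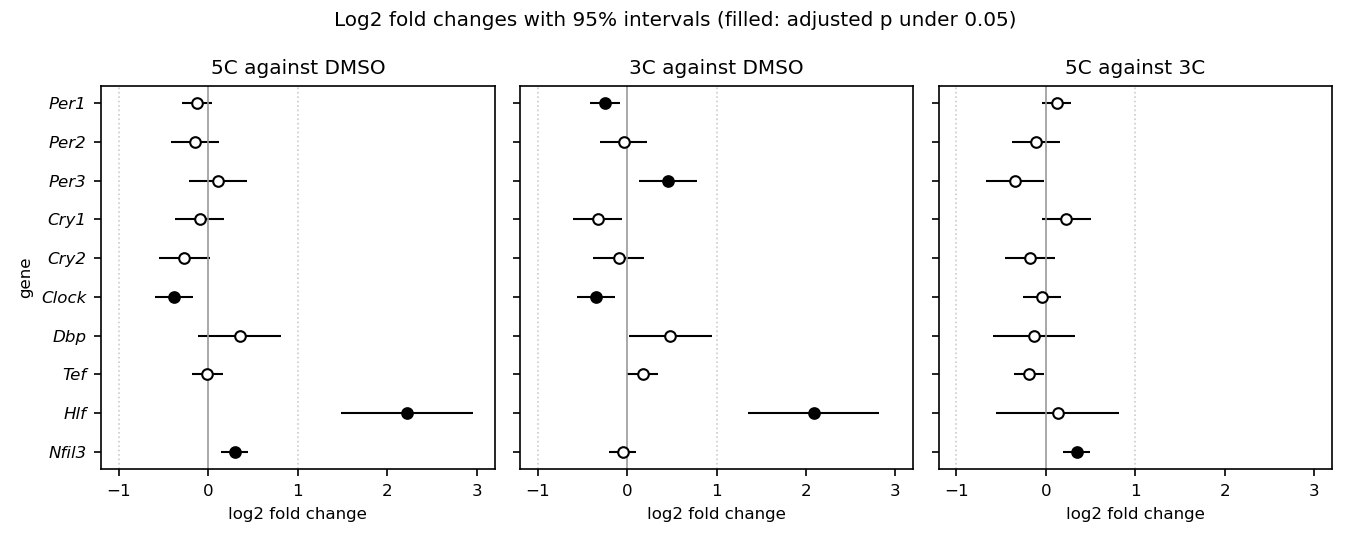
Log2 fold change of the 10 clock and PAR bZIP genes in each of the 3 comparisons, with points for the estimate (filled where the gene passed) and bars for the 95% interval (2 libraries a group, edgeR). Hlf stands apart at 2.22 (5C) and 2.09 (3C) when set against DMSO, while the intervals of the other 9 genes stay within ±1.

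Among the PAR bZIP activators, Hlf changed and the estimates of Dbp and Tef stayed under 2-fold. Hlf (ENSMUSG00000003949, hepatic leukaemia factor, chromosome 11, 90227221-90281761, minus strand, GRCm39) read 2.81 and 1.35 CPM in DMSO, 10.5 and 7.64 CPM in 3C, and 9.83 and 9.30 CPM in 5C, from 189 and 89 counts in DMSO, 693 and 521 in 3C, and 679 and 644 in 5C. All 4 cocktail libraries lay above both DMSO libraries, and the cocktail groups overlapped each other. The log2 fold change was 2.22 (SE 0.32, 95% interval 1.49 to 2.95, adjusted p = 0.000918) in 5C and 2.09 (SE 0.32, 1.36 to 2.82, adjusted p = 0.00154) in 3C, which is 4.66-fold and 4.26-fold. Genes with a larger absolute change than Hlf made up 7.26% of all genes in 5C and 6.2% in 3C. Between the cocktails it differed by 0.13 (95% interval -0.56 to 0.82, adjusted p = 0.862). The size of the rise rested on the low DMSO libraries, which themselves differed: without DMSO replicate 1 it was 2.83 in 5C and 2.70 in 3C, and without DMSO replicate 2 1.80 and 1.67, with adjusted p of at most 0.0108 over the fits that left out 1 library. By limma on log2(FPKM + 1), which understates changes of low genes, it was 1.19 in 5C and 1.10 in 3C and passed in both. The summed hepatocyte markers moved in the same direction as Hlf and the summed macrophage markers in the opposite direction, and their part in the Hlf difference was not tested.

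Dbp (ENSMUSG00000059824, albumin D-box binding protein, chromosome 7, 45354512-45359627, plus strand) read 7.62 and 5.57 CPM in DMSO, 8.18 and 10.6 CPM in 3C, and 8.21 and 8.36 CPM in 5C. Every cocktail library exceeded both DMSO libraries, but neither difference passed after adjustment over all genes: the log2 fold change was 0.35 (95% interval -0.12 to 0.81, adjusted p = 0.255) in 5C and 0.48 (0.02 to 0.95, adjusted p = 0.131) in 3C. The unadjusted 95% interval lay above 0 in 3C only. Of its exonic bases 15.5% lie opposite Sphk2 on the other strand, whose own log2 fold changes were -0.36 and -0.24, and the strand setting of the counting was not given, so reads of the overlap cannot be told apart. Tef (ENSMUSG00000022389, thyrotroph embryonic factor, chromosome 15, 81686622-81711064, plus strand) read 74.5 and 67.2 CPM in DMSO, 79.4 and 84.1 CPM in 3C, and 68.0 and 70.6 CPM in 5C. Its highest group was 3C, whose libraries lay above all others. The log2 fold change of Tef was -0.01 in 5C (adjusted p = 0.935), 0.18 in 3C (adjusted p = 0.136) and -0.19 in 5C against 3C (adjusted p = 0.163), and 13.4% of its exonic bases overlap other gene models.

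Nfil3, the repressor that occupies the same D-box elements, was the member that told the cocktails apart. It read 60.8 and 60.7 CPM in DMSO, 60.7 and 59.2 CPM in 3C, and 74.8 and 72.4 CPM in 5C. The 2 libraries of each group lay close together, and both 5C libraries stood above the other 4. The log2 fold change was 0.29 (SE 0.07, 95% interval 0.14 to 0.45, adjusted p = 0.00984) in 5C and -0.05 (-0.20 to 0.10, adjusted p = 0.66) in 3C against DMSO. The difference between 5C and 3C was 0.35 (SE 0.07, 0.19 to 0.50, adjusted p = 0.00998), a 1.27-fold rise. The rise against DMSO passed in all 16 alternative analyses. The rise against 3C passed in 11 of 16 and was lost without either 3C library or 5C replicate 1 (adjusted p 0.0538 to 0.113), at log2 fold changes of 0.33 to 0.36, and with both FPKM pseudocounts (adjusted p = 0.0531 and 0.057). Nfil3 (ENSMUSG00000056749) lies on chromosome 13, 53121245-53137010, minus strand, with 10.5% of its exonic bases under other gene models. The log2 ratio of Dbp to Nfil3, activator over repressor in CPM, averaged -3.22 ± 0.32 (SD, n = 2) in DMSO, -2.68 ± 0.29 in 3C and -3.15 ± 0.05 in 5C, so that 5C lay at the DMSO level within the spread. The log2 ratio of Dbp to Arntl averaged -2.09 ± 0.34 in DMSO, -1.37 ± 0.10 in 3C and -1.40 ± 0.05 in 5C, and both cocktails lay above both DMSO libraries.

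**Figure D2:**
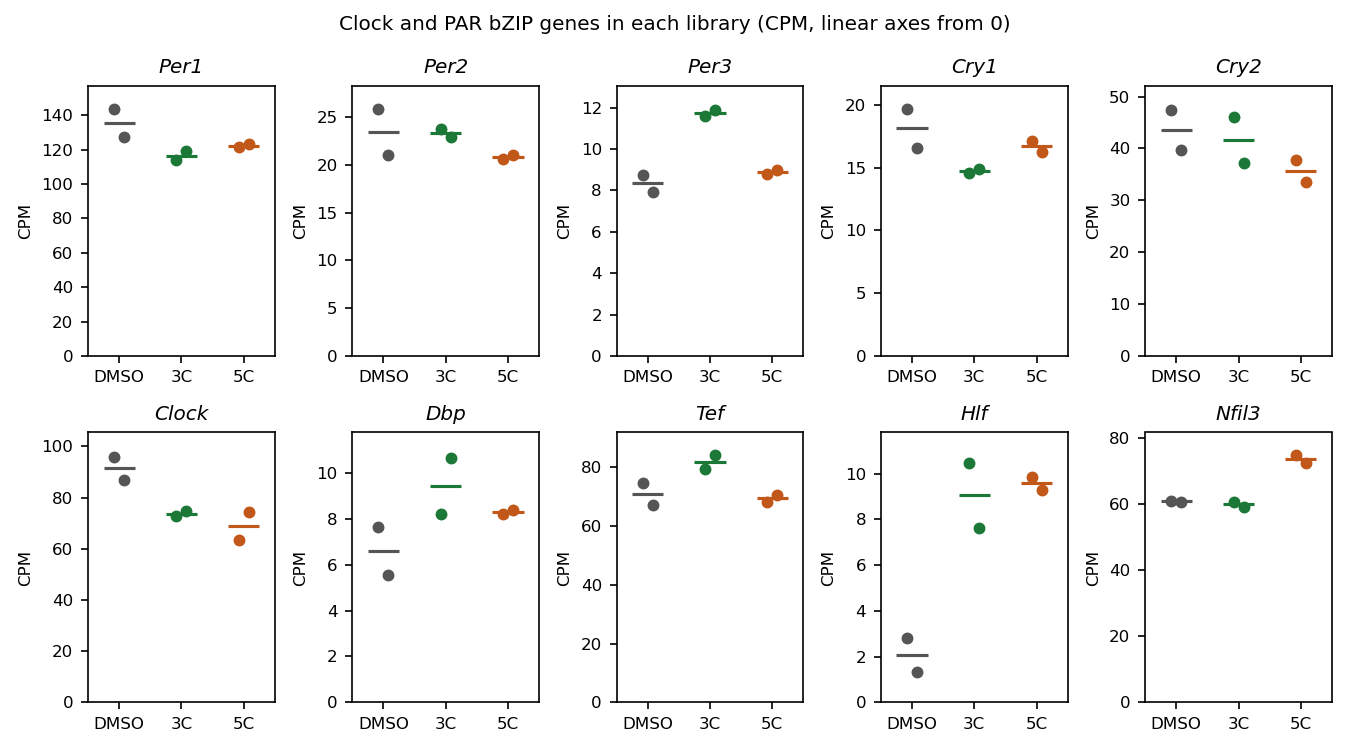
CPM of each of the 10 genes in the 6 libraries, 1 panel a gene with its own axis, with points for libraries and bars for the group means (n = 2). Hlf sits between 1.35 and 2.81 CPM in DMSO and between 7.64 and 10.5 CPM in the cocktails, and Nfil3 stands at 72.4 and 74.8 CPM in 5C beside 59.2 to 60.8 CPM elsewhere.

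The period genes encode the negative arm of the loop, and they did not move as one. Per1 (ENSMUSG00000020893, chromosome 11, 68986035-69002300, plus strand) read 144 and 127 CPM in DMSO, 114 and 119 CPM in 3C, and 121 and 123 CPM in 5C. The 2 cocktail groups lay below both DMSO libraries, but the log2 fold change passed in 3C (-0.25, 95% interval -0.42 to -0.09, adjusted p = 0.0348) and not in 5C (-0.13, -0.30 to 0.04, adjusted p = 0.232), and 5C against 3C gave 0.12 (adjusted p = 0.375). The 3C call was weak: it was lost without DMSO replicate 1, either 3C library or either 5C library (adjusted p 0.051 to 0.249, log2 fold change -0.28 to -0.17), and it passed in 8 of 16 alternatives. Per2 (ENSMUSG00000055866, chromosome 1, 91343700-91387069, minus strand) read 25.9 and 21.0 CPM in DMSO, 23.8 and 22.9 CPM in 3C, and 20.6 and 21.0 CPM in 5C. Both cocktail groups overlapped DMSO, and the log2 fold change was -0.15 in 5C (95% interval -0.42 to 0.11) and -0.04 in 3C (-0.31 to 0.23). Per3 (ENSMUSG00000028957, chromosome 4, 151081373-151129140, minus strand) read 8.77 and 7.93 CPM in DMSO, 11.6 and 11.9 CPM in 3C, and 8.77 and 9.01 CPM in 5C. The 3C libraries were the highest and the 5C libraries were close to DMSO. Per3 rose in 3C by 0.46 (95% interval 0.13 to 0.78, adjusted p = 0.0466), and read 0.11 in 5C (adjusted p = 0.639) and -0.35 in 5C against 3C (-0.67 to -0.02, adjusted p = 0.169). This call was lost without any 1 library (adjusted p 0.0597 to 0.221, log2 fold change 0.41 to 0.52), and it passed in 5 of 16 alternatives.

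The cryptochromes, partners of the PER proteins in repression, did not pass in any comparison. Cry1 (ENSMUSG00000020038, chromosome 10, 84967560-85021252, minus strand) read 19.7 and 16.6 CPM in DMSO, 14.6 and 14.9 CPM in 3C, and 17.2 and 16.2 CPM in 5C. Both 3C libraries lay below the other 4, with a log2 fold change of -0.33 (95% interval -0.60 to -0.06, adjusted p = 0.0825), which passed in 1 of 16 alternatives, that without DMSO replicate 2 (-0.43, adjusted p = 0.0441). In 5C it was -0.10 (adjusted p = 0.606). Cry2 (ENSMUSG00000068742, chromosome 2, 92233894-92264474, minus strand) read 47.5 and 39.6 CPM in DMSO, 46.1 and 37.2 CPM in 3C, and 37.7 and 33.4 CPM in 5C. The 2 libraries of DMSO and of 3C were about as far apart as the groups, and the log2 fold change was -0.27 (95% interval -0.56 to 0.01) in 5C and -0.10 (-0.38 to 0.19) in 3C.

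Clock, the activator with histone acetyltransferase activity that pairs with BMAL1, was lower in both cocktails. It read 96.0 and 87.0 CPM in DMSO, 72.6 and 74.6 CPM in 3C, and 63.6 and 74.4 CPM in 5C (ENSMUSG00000029238, chromosome 5, 76342860-76452846, minus strand). Every cocktail library lay below both DMSO libraries, and the cocktail groups overlapped. Clock fell by 0.39 on the log2 scale in 5C (95% interval -0.60 to -0.18, adjusted p = 0.0127) and by 0.35 in 3C (-0.56 to -0.14, adjusted p = 0.0244), that is 1.31-fold and 1.27-fold lower. The call in 5C was lost without DMSO replicate 1 or 5C replicate 1 (adjusted p 0.0708 to 0.0781, log2 fold change -0.33 to -0.26) and that in 3C without DMSO replicate 1 or either 3C library (adjusted p 0.107 to 0.155, -0.37 to -0.29). By limma on log2(FPKM + 1) Clock did not pass in 5C (adjusted p = 0.0567) or in 3C (adjusted p = 0.185), and on log2(FPKM + 0.1) it did not pass in 3C (adjusted p = 0.174), so that it passed in 13 of 16 alternatives in 5C and 11 of 16 in 3C. Of the exonic bases of Clock 12.6% lie opposite other genes, among them Tmem165, which read -0.07 in 5C (adjusted p = 0.5) and -0.38 in 3C (adjusted p = 0.00254). Overlaps covered 3.45% to 5.75% of Cry2, Per1 and Per3 and none of Hlf, Per2 and Cry1.

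Promoters of 3 members are printed to show which clock-related elements lie next to genes described above. RefSeq windows of 250 bases before to 50 bases after the start (GRCm38.p6, whose coordinates differ from the GRCm39 ones above) were held for 9 of the 10 members, in 13 windows, and Per2 was without an entry. They were searched on both strands for the E-box CACGTG, bound by CLOCK and BMAL1, the D-box TTATGTAA or TTACGTAA, bound by PAR bZIP factors and NFIL3, and the cAMP response element (CRE) TGACGTCA, bound by CREB. The motifs were found in 7.15%, 1.06% and 1.79% of all 32851 windows. The E-box was found for Per1, Cry1 and Tef, the D-box for Per3, and the CRE for Hlf, and none of the 3 was found in the windows of Cry2, Clock, Dbp or Nfil3, which says only that these letters are not there. Per3 held 2 D-boxes, 205 and 158 bases before its start. The CRE of Hlf began 9 bases before its start and the E-box of Per1 166 bases before its start. The 250 bases before the start are given 5′ to 3′ on the strand of the gene, with the motifs in capitals. The coordinates are chr11:90390918-90391167 (minus strand) for Hlf, chr4:151044666-151044915 (minus strand) for Per3 and chr11:69098699-69098948 (plus strand) for Per1.
Hlf: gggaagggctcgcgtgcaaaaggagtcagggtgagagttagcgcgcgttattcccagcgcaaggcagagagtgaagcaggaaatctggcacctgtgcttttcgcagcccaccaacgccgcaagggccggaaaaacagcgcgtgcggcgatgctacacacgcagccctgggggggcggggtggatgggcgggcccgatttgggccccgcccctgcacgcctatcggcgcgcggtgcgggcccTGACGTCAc
Per3: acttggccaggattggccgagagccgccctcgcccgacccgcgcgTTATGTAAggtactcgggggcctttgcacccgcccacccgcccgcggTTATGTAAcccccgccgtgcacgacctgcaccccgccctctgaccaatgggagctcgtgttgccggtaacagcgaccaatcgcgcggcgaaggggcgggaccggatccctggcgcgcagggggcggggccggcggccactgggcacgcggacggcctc
Per1: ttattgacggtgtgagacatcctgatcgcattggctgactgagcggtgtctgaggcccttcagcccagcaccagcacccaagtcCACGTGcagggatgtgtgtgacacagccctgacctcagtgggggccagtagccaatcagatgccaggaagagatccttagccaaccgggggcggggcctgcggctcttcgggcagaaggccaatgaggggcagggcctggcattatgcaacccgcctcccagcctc

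Levels were compared between genes on the deposited FPKM scale, which is per length of gene but did not follow the counts for every gene. In DMSO Nfil3 (27.2 ± 0.970 FPKM, SD, n = 2) and Per1 (27.0 ± 3.39) were highest and overlapped. They were followed by Tef (16.3 FPKM), then Cry2 (10.4) and Clock (9.995), which overlapped, and Cry1 (5.45), then Per2 (3.67) and Dbp (3.37), which also overlapped. Per3 (1.29) and Hlf (0.390 ± 0.132) were lowest, each separate from its neighbours. In 3C Hlf rose to 1.97 ± 0.0698 FPKM and overlapped Per3 (1.91), and Dbp (5.04) stood above Cry1 (4.35) with overlapping libraries. In 5C Hlf (2.17 ± 0.184 FPKM) stood above Per3 (1.42) and below Per2 (3.22), with no overlap on either side. By deposited FPKM the repressor Nfil3 was thus the highest of the D-box binding factors in all 3 groups, at 32.7 FPKM in 5C beside 16.0 for Tef and 4.47 for Dbp.

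**Figure D3:**
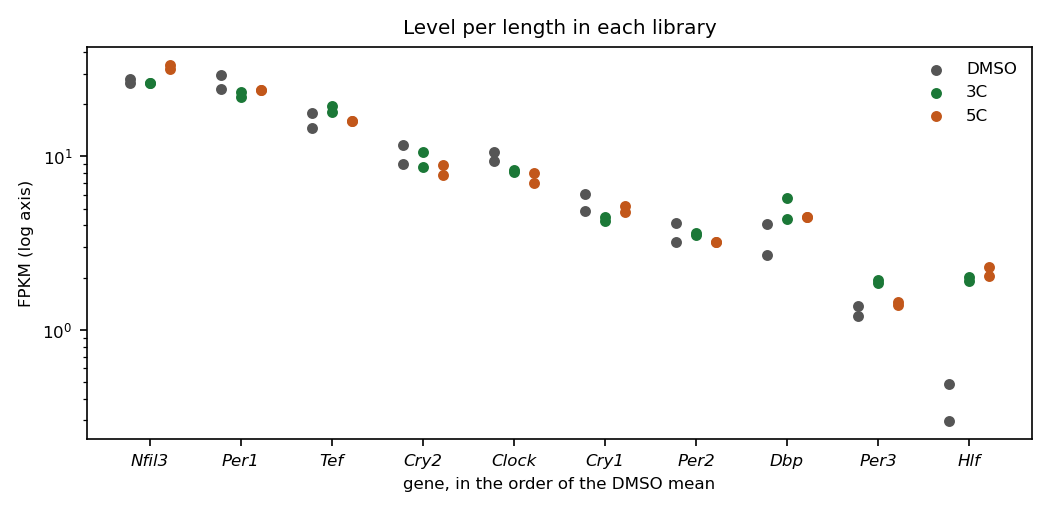
FPKM (log axis) of the 10 genes in DMSO, 3C and 5C, with points for the 2 libraries of each group. Nfil3 and Per1 lie at the top in every group, and Hlf moves from 0.296 to 0.483 FPKM in DMSO to 1.92 to 2.298 FPKM in the cocktails.

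The other core clock genes were taken from a list of 10, of which 10 were tested. In 5C against DMSO 2 rose, 3 fell and 5 did not pass (median log2 fold change -0.34), in 3C against DMSO 3 rose, 0 fell and 7 did not pass (median 0.07), and in 5C against 3C 0 rose, 1 fell and 9 did not pass (median -0.33), where the medians of all genes were 0.00, 0.01 and -0.01. The shares of all genes called were 28.7%, 24.5% and 12.7% in the same order. Npas2, a paralog of Clock that also pairs with BMAL1, rose in both cocktails (0.84, adjusted p = 0.00327 in 5C and 0.79, adjusted p = 0.00502 in 3C). Npas2 read 6.49 and 5.49 CPM in DMSO, 10.8 and 10.4 CPM in 3C, and 10.7 and 10.4 CPM in 5C. Arntl itself read 27.5 and 28.1 CPM in DMSO, 22.2 and 26.1 CPM in 3C, and 22.1 and 21.5 CPM in 5C and did not pass, with -0.33, adjusted p = 0.0516 in 5C and -0.23, adjusted p = 0.17 in 3C. In 5C the repressors Nr1d2 (REV-ERB beta, -0.37, adjusted p = 0.00764), Ciart (-0.73, adjusted p = 0.0198) and Bhlhe41 (-0.40, adjusted p = 0.0351) fell, and Bhlhe40, which competes for E-boxes, rose (0.45, adjusted p = 0.00696). In 3C Nr1d1 (REV-ERB alpha, 0.49, adjusted p = 0.00649) and the ROR receptor Rora (0.49, adjusted p = 0.00371) rose. Rora was the 1 gene of the list called between the cocktails, lower in 5C (-0.48, adjusted p = 0.00839), and it read 74.8 and 73.0 CPM in DMSO, 106 and 106 CPM in 3C, and 67.2 and 79.3 CPM in 5C. Of the exonic bases of Nr1d1 52.8% lie opposite other genes, among them Thra, which rose in both cocktails (0.84 and 0.57), so reads of the overlap cannot be told apart. The same limit holds for Bhlhe41, with 26.2% of its exonic bases opposite other gene models. The calls lost with 1 library left out were, in 5C against DMSO, Nr1d2 without 5C replicate 1 (adjusted p = 0.0561), Ciart without DMSO replicate 1 or either 5C library (adjusted p 0.0646 to 0.0992) and Bhlhe41 without DMSO replicate 2, 3C replicate 2 or either 5C library (adjusted p 0.0503 to 0.183), in 3C against DMSO, Nr1d1 without 3C replicate 2 (adjusted p = 0.0636), and in 5C against 3C, Rora without either 3C library (adjusted p 0.0647 to 0.0679). Arntl2 did not pass in any comparison (-0.35 in 5C and 0.18 in 3C), and Rorb was near the detection floor. Nr1d1 was called lower in 5C than in 3C without DMSO replicate 2 (adjusted p = 0.0497).

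**Figure D4:**
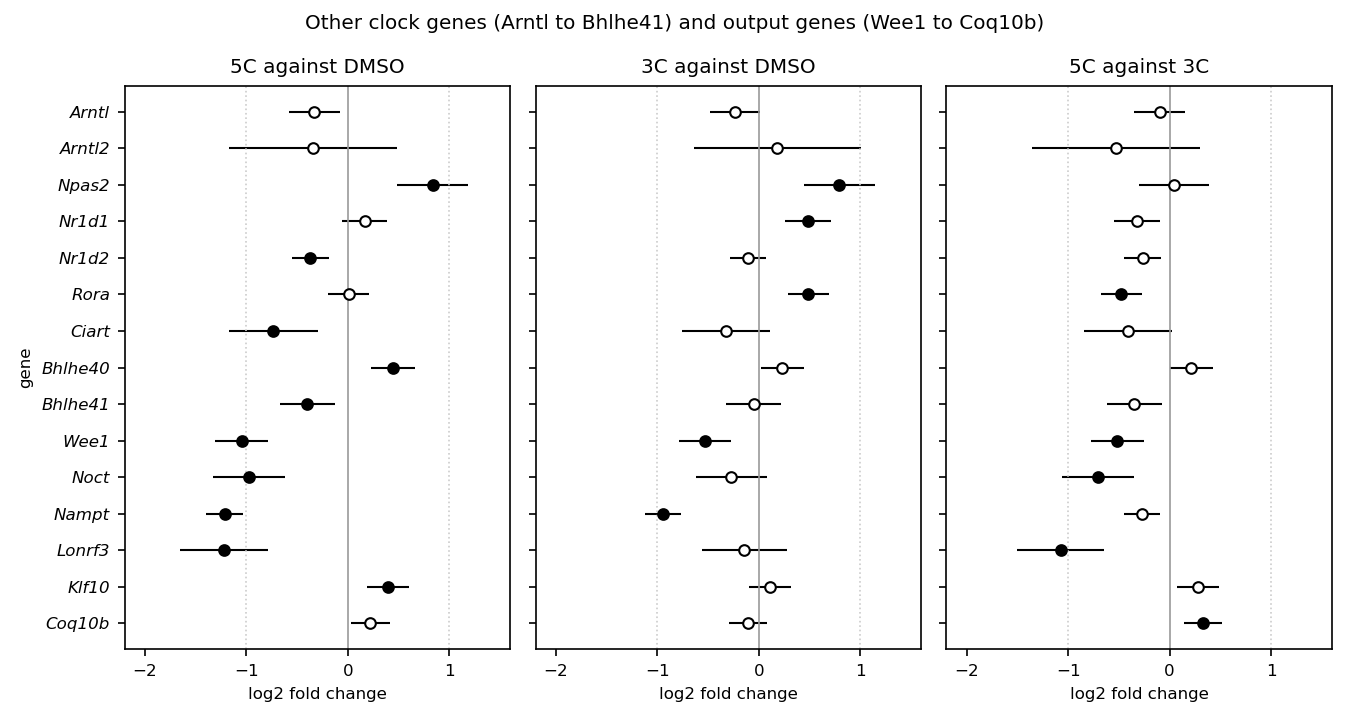
Log2 fold change with 95% interval (2 libraries a group, edgeR) of other core clock genes and clock-controlled output genes in the 3 comparisons, with filled points where the gene passed; Rorb and Gys2, at or near 0 counts in some libraries, are not drawn. Npas2 lies above 0 in both cocktails, whereas Wee1, Noct, Nampt and Lonrf3 lie between -1.22 and -0.98 in 5C against DMSO.

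Kinases, ligases and cofactors that set the stability of the PER and CRY proteins were examined next, and their counts stand beside calls for 28.7% of all genes in 5C against DMSO, 24.5% for 3C and 12.7% between the cocktails. Of 10 genes, in 5C against DMSO 2 rose, 1 fell and 7 did not pass (median -0.01), in 3C against DMSO 1 rose, 0 fell and 9 did not pass (median 0.05), and in 5C against 3C 1 rose, 1 fell and 8 did not pass (median -0.05). In 5C the casein kinase gene Csnk1e fell (-0.42, adjusted p = 0.0011) and Csnk1a1 rose (0.34, adjusted p = 0.00528), and the deubiquitinase gene Usp2 rose (0.75, adjusted p = 0.00268). Usp2 read 10.4 and 9.04 CPM in DMSO, 10.1 and 10.5 CPM in 3C, and 15.8 and 16.4 CPM in 5C, with both 5C libraries above the other 4, and also rose in 5C against 3C (0.69, adjusted p = 0.00941), where Csnk1e fell (-0.27, adjusted p = 0.0268). In 3C the gene that passed was Nono, a PER-binding cofactor (0.24, adjusted p = 0.0267). Calls that did not hold with 1 library left out were, in 3C against DMSO, Nono without DMSO replicate 1 or either 3C library (adjusted p 0.0826 to 0.208), and in 5C against 3C, Usp2 without either 3C library or 5C replicate 2 (adjusted p 0.0657 to 0.092) and Csnk1e without either 3C library or either 5C library (adjusted p 0.0821 to 0.219). Csnk1d, Btrc, Fbxw11, Fbxl21, Gsk3b and Sirt1 did not pass in any comparison, though Sirt1 was called lower in 5C against DMSO without 5C replicate 2 (adjusted p = 0.0461).

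Over all genes 28.7% were called in 5C against DMSO (13.1% lower), 24.5% in 3C against DMSO and 12.7% between the cocktails. Beside these shares, clock-controlled output genes, 7 of 7 tested, more often fell than rose in 5C. In 5C against DMSO 2 rose, 4 fell and 1 did not pass (median -0.98), in 3C against DMSO 0 rose, 2 fell and 5 did not pass (median -0.14), and in 5C against 3C 1 rose, 3 fell and 3 did not pass (median -0.27). Those that fell in 5C were Wee1, a kinase that holds back mitosis (-1.05, adjusted p = 0.000151), Noct, an NADP(H) phosphatase with strong daily rhythm (-0.98, adjusted p = 0.00148), Nampt, the rate-limiting enzyme of NAD salvage (-1.21, adjusted p = 6.88e-06), and Lonrf3 (-1.22, adjusted p = 0.00125). Of the 50-base stretches of the longest Noct transcript, 47.1% also occur in transcripts of other genes, most often Raver2. Reads from these stretches may not be told apart. Wee1 read 28.7 and 29.0 CPM in DMSO, 21.4 and 19.5 CPM in 3C, and 14.9 and 12.7 CPM in 5C, with all 3 groups apart. Nampt read 214 and 230.0 CPM in DMSO, 120.3 and 116 CPM in 3C, and 90.3 and 98.6 CPM in 5C, with all 3 groups apart as well. In 3C, Wee1 (-0.53, adjusted p = 0.0085) and Nampt (-0.94, adjusted p = 3.96e-05) fell. In 5C against 3C, Wee1 (-0.52, adjusted p = 0.0187), Noct (-0.70, adjusted p = 0.0185) and Lonrf3 (-1.08, adjusted p = 0.00663) fell and Coq10b rose (0.33, adjusted p = 0.0339). Klf10 (0.39, adjusted p = 0.0107) rose in 5C. Gys2, liver glycogen synthase, also rose in 5C (adjusted p = 0.0361), with 0.476 and 0 CPM in DMSO, 2.73 and 2.14 CPM in 3C, and 5.68 and 7.87 CPM in 5C, and with a DMSO library at 0 its fitted fold change is not printed. Gys2 also passed in 3C against DMSO without either DMSO library (adjusted p 0.000139 to 0.00363) and in 5C against 3C without either DMSO library (adjusted p 0.00738 to 0.00794), and Nampt was called lower in 5C than in 3C without either DMSO library (adjusted p 0.0365 to 0.041). With 1 library left out, the calls lost were, in 5C against DMSO, Klf10 without DMSO replicate 1 or 5C replicate 2 (adjusted p 0.0505 to 0.0805) and Gys2 without either 3C library or either 5C library (adjusted p 0.115 to 0.139), in 3C against DMSO, Wee1 without 3C replicate 2 (adjusted p = 0.0877), and in 5C against 3C, Wee1 without either 3C library or 5C replicate 2 (adjusted p 0.0674 to 0.163), Noct without either 3C library or either 5C library (adjusted p 0.0678 to 0.138), Lonrf3 without 3C replicate 1 (adjusted p = 0.0556) and Coq10b without either 3C library or either 5C library (adjusted p 0.0921 to 0.213).

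The next list held 10 liver genes known to lie downstream of the PAR bZIP factors, 9 of which were tested, Cyp7a1 being under the filter. Most were higher in both cocktails: in 5C against DMSO 7 rose, 0 fell and 2 did not pass (median 0.48), in 3C against DMSO 6 rose, 1 fell and 2 did not pass (median 0.63), and in 5C against 3C 3 rose, 2 fell and 4 did not pass (median 0.27). Of all genes, 15.6% rose and 13.1% fell in 5C against DMSO, and 12.7% rose and 11.8% fell in 3C. Between the cocktails 12.7% of all genes were called. Alas1, the rate-limiting enzyme of haem synthesis, read 67.8 and 67.6 CPM in DMSO, 101 and 101 CPM in 3C, and 161 and 161 CPM in 5C. It stepped up from DMSO to 3C to 5C with almost no spread within groups, and rose in 5C (1.27, adjusted p = 1.3e-06), in 3C (0.55, adjusted p = 0.00021) and in 5C against 3C (0.72, adjusted p = 0.00027). Of the exonic bases of Alas1 26.2% lie opposite 4930500F10Rik, and reads of that overlap cannot be told apart. Cyp2b10, the main target of the xenobiotic receptor CAR, read 3.84 and 2.26 CPM in DMSO, 20.6 and 16.3 CPM in 3C, and 78.8 and 78.2 CPM in 5C. It had the largest rise of the list in 5C, 26.1-fold (4.70, adjusted p = 9.75e-06), 5.92-fold in 3C (2.57, adjusted p = 0.000192) and 4.40-fold in 5C against 3C (2.14, adjusted p = 0.00119). Nr1i3, which encodes CAR, was low at 0.536 and 0.592 CPM in DMSO, 2.14 and 1.17 CPM in 3C, and 2.20 and 3.13 CPM in 5C, and rose in 5C (2.26, adjusted p = 0.00313) and 3C (1.52, adjusted p = 0.0248), but 75.4% of its exonic bases overlap Tomm40l, so that reads of the overlap cannot be told apart. Tomm40l itself read 0.23 in 5C (adjusted p = 0.177) and 0.20 in 3C (adjusted p = 0.259).

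Por, the electron donor of cytochrome P450 enzymes, rose in 5C (0.48, adjusted p = 0.00121) and read 0.22, adjusted p = 0.0672 in 3C. Gstt1, a glutathione transferase, rose in 5C (1.28, adjusted p = 3.87e-05) and 3C (1.81, adjusted p = 8.57e-06), as did Aldh1a1, a retinal dehydrogenase (0.42, adjusted p = 0.00696 and 0.75, adjusted p = 0.000318), and Abcg2, a xenobiotic exporter (0.33, adjusted p = 0.0343 and 0.51, adjusted p = 0.00503). Unlike Alas1 and Cyp2b10, Gstt1 (-0.52, adjusted p = 0.0146) and Aldh1a1 (-0.32, adjusted p = 0.0463) were lower in 5C than in 3C. Fgf21, a fasting hormone, went the other way: it fell in 3C (-1.33, adjusted p = 0.00107) and was higher in 5C than in 3C (0.98, adjusted p = 0.0105), with 35.6 and 36.4 CPM in DMSO, 11.6 and 17.7 CPM in 3C, and 26.1 and 29.7 CPM in 5C. Cyp2a5 read 1.56 and 0.106 CPM in DMSO, 1.37 and 1.26 CPM in 3C, and 1.04 and 0.650 CPM in 5C and did not pass in any comparison, but its DMSO libraries lay far apart, and it was called higher in 5C without DMSO replicate 1 (adjusted p = 0.0139) and in 3C without DMSO replicate 1 (adjusted p = 0.00739). Por passed in 3C without DMSO replicate 2 (adjusted p = 0.042) and in 5C against 3C without either DMSO library (adjusted p 0.0297 to 0.0322). Leaving out 1 library ended these calls: in 5C against DMSO, Aldh1a1 without 5C replicate 1 (adjusted p = 0.058) and Abcg2 without either DMSO library, either 3C library or 5C replicate 2 (adjusted p 0.0661 to 0.216), in 3C against DMSO, Nr1i3 without either DMSO library or 3C replicate 1 (adjusted p 0.065 to 0.207) and Abcg2 without 3C replicate 2 (adjusted p = 0.0514), and in 5C against 3C, Gstt1 without 3C replicate 1 or 5C replicate 1 (adjusted p 0.0943 to 0.149), Aldh1a1 without either 3C library or either 5C library (adjusted p 0.0696 to 0.362) and Fgf21 without 5C replicate 2 (adjusted p = 0.0899). The hepatocyte markers rose along with these liver genes, and the part of Hlf or of any member in their change was not tested.

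**Figure D5:**
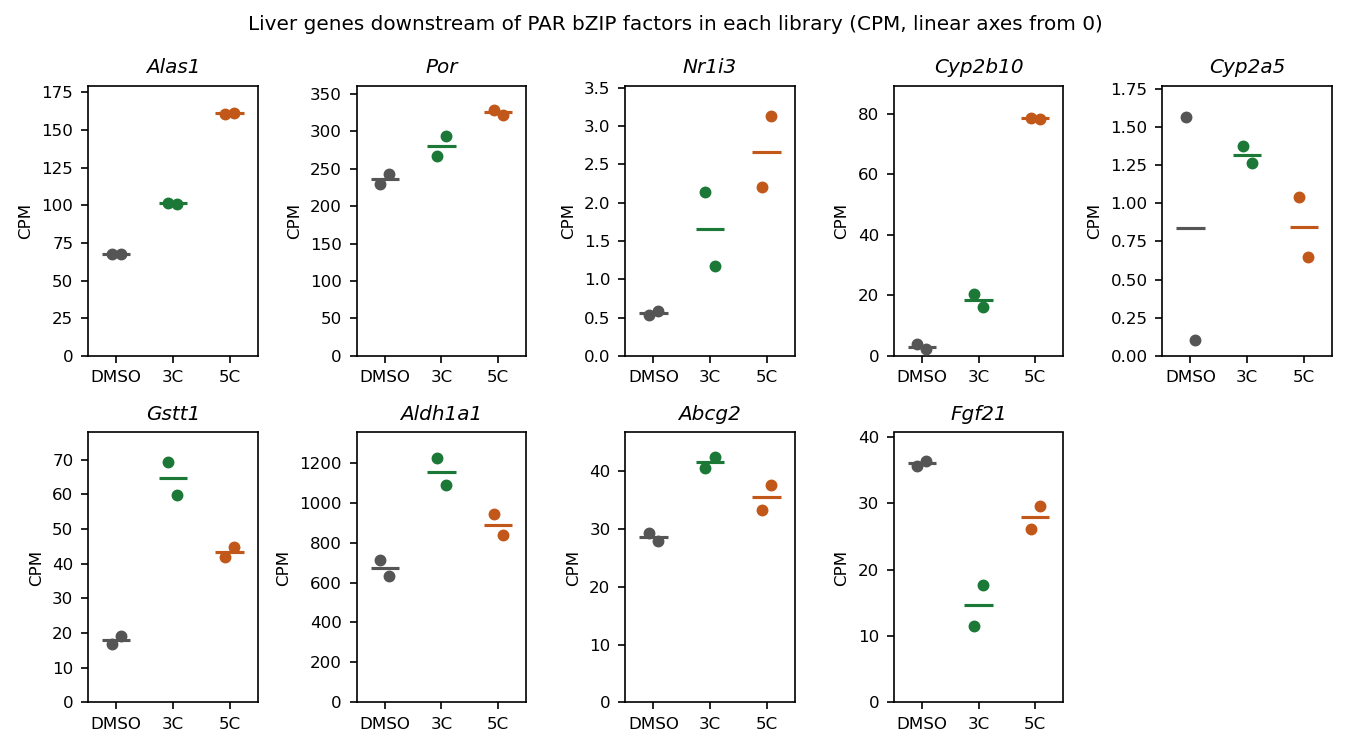
CPM (linear axes from 0, 1 panel a gene) by library of 9 liver genes known to lie downstream of the PAR bZIP factors, in DMSO, 3C and 5C with points for libraries and bars for group means (n = 2). Cyp2b10 climbs from 2.26 to 3.84 CPM in DMSO to 78.2 to 78.8 CPM in 5C, whereas Fgf21 is lowest in 3C, at 11.6 and 17.7 CPM.

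Since forskolin was added in 5C and Per1 is a CREB target, 13 cAMP and CREB response genes were examined beside Per1. Salidroside was added along with forskolin, so their parts in 5C against 3C cannot be told apart. The hepatocyte markers also rose in both cocktails against DMSO, and their part in these changes was not tested. In 5C against 3C 6 rose, 1 fell and 6 did not pass (median 0.58), in 5C against DMSO 8 rose, 1 fell and 4 did not pass (median 0.59), and in 3C against DMSO 6 rose, 3 fell and 4 did not pass (median -0.03). The shares of all genes called were 12.7%, 28.7% and 24.5% in the same order. Between 5C and 3C, Pck1 and G6pc, enzymes of glucose production, rose by 2.23 (adjusted p = 0.0372) and 0.87 (adjusted p = 0.0121), the nuclear receptor gene Nr4a3 by 1.71 (adjusted p = 0.0455), and the phosphodiesterase gene Pde4b by 1.20 (adjusted p = 0.00245). Nr4a3 was low, with 31 and 20 counts in 3C and 93 and 74 counts in 5C, where the detection floor was 12 counts. Per1 differed by 0.12 in 5C against 3C (95% interval -0.05 to 0.29). Sik1, a CREB target chosen here after its values were seen, was instead lower in 5C than in 3C (-0.53, adjusted p = 0.00152). Sik1 read 67.8 and 63.1 CPM in DMSO, 98.3 and 96.2 CPM in 3C, and 66.4 and 63.8 CPM in 5C, so 5C lay within the DMSO range. Fos read 25.6 and 29.0 CPM in 3C and 41.6 and 45.1 CPM in 5C. Nr4a1 read 12.5 and 12.8 CPM in 3C and 17.4 and 19.0 CPM in 5C. Of the 13 genes, 9 had a positive and 4 a negative log2 fold change in 5C against 3C. Tat (-0.42, adjusted p = 0.287) and Ppargc1a (-0.38, adjusted p = 0.363) did not pass. Without DMSO replicate 1 or 2, Tat read -0.42 or -0.43. Against DMSO, Pck1 and G6pc also rose in 3C, which held no forskolin (3.42, adjusted p = 0.0089 and 2.39, adjusted p = 3.07e-05), as did Tat (1.90, adjusted p = 0.00144) and Ppargc1a (1.59, adjusted p = 0.00112), while Pde4b fell (-0.57, adjusted p = 0.0342). In 5C against DMSO, Pck1 (5.65, adjusted p = 0.00184), G6pc (3.26, adjusted p = 4.19e-06), Tat (1.48, adjusted p = 0.00341), Ppargc1a (1.20, adjusted p = 0.0044) and Pde4b (0.62, adjusted p = 0.0202) rose. Not every call held when 1 library was left out, the exceptions being, in 5C against DMSO, Pde4b without DMSO replicate 2 or 5C replicate 2 (adjusted p 0.094 to 0.152), in 3C against DMSO, Pck1 without either 3C library (adjusted p 0.0734 to 0.0782) and Pde4b without DMSO replicate 1 or 3C replicate 1 (adjusted p 0.151 to 0.234), and in 5C against 3C, Pck1 without either 3C library or either 5C library (adjusted p 0.058 to 0.291), G6pc without either 3C library or 5C replicate 2 (adjusted p 0.0604 to 0.114) and Nr4a3 without either 3C library or either 5C library (adjusted p 0.107 to 0.255).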

How the data were processed

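Bulk RNA-seq of 6 libraries was analysed, 2 each of DMSO, 3C and 5C, grouped by the labels. The deposited counts are whole numbers per gene and were not normalized by the authors, whose processing notes name featureCounts from Subread, DESeq2 and GRCm39, without versions. The aligner, annotation release and strand setting are not given in the sources used here. The deposited FPKM values, a scale per gene length and library size, were used as given for levels between genes and as an alternative. They did not follow the counts for every gene. Junb read 0 FPKM from 9858 counts in DMSO replicate 1, and 78.4 FPKM from 10541 counts in DMSO replicate 2. The FPKM levels, ratios and fits share this limit. Counts were tested in edgeR 4.0.16 (R 4.3.3; filterByExpr, TMM, robust quasi-likelihood, 1 fit over the 6 libraries, 3 residual degrees of freedom), with Benjamini-Hochberg adjustment over 19135 genes. CPM (the count scaled to the library's total count, as deposited) took no TMM factor, and TMM factors entered the tests and the log2 CPM of the likeness measure. Standard errors were derived from the F statistic, and 95% intervals from the t distribution. Totals were 65916573 to 69245895 counts. The detection floor was taken as 12 counts, for 3 fragments at an assumed 4 counts each, and covers counting error only. The counts printed here may thus exceed the number of fragments behind them. Alternatives were DESeq2 1.42.0, limma 3.58.1 on log2(FPKM + 1) or log2(FPKM + 0.1), other filters, a replicate block, pairwise fits and each library left out; counts divided by 4 were added after seeing the data. Positions and overlaps came from GENCODE on GRCm39, which may differ from the authors' annotation, and promoters from RefSeq (GRCm38.p6). The scripts were tested on simulated data. Named genes were the 10 members, every gene of lists with at most 11 tested genes, of longer lists the 6 with the largest changes among those passing, and for Dbp, Per1 and Nfil3 the 3 genes most alike. Some genes of the lists are not reported here. The members and lists were chosen with earlier results of these data known.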

Additional observations from a re-analysis of the deposited data

Results flagged for a closer look

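The log2 fold changes of Nfil3 against DMSO differed in sign, 0.29 in 5C (adjusted p = 0.00984) and -0.05 in 3C (adjusted p = 0.66, not passing). In 3C it was little changed, at 60.7 and 59.2 CPM beside 60.8 and 60.7 CPM in DMSO, so a fall in 3C is not shown. The difference itself, tested as 5C against 3C, was 0.35 on the log2 scale (adjusted p = 0.00998, edgeR, 2 libraries a group). Both 5C libraries lay above both 3C libraries. Over the 16 alternatives this adjusted p ran from 8.36e-05 to 0.113, and it was lost without either 3C library or 5C replicate 1 (adjusted p 0.0538 to 0.113). Groups of 2 libraries are too small for a test of single outlying libraries.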

How the results depend on the processing

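Of the 480 values of members under alternative settings, 447 kept their side of the threshold, 32 lost a call and 1 gained one; no called value turned sign, and 9 uncalled ones did. For the other named genes 2424 kept their side, 143 lost a call and 59 gained one. Asking for 2-fold as well left 1, 1 and 0 members in 5C against DMSO, in 3C against DMSO and between the cocktails (unadjusted p under 0.05 without the fold: 3, 7 and 3), 14, 9 and 5 of the 62 tested genes of the 7 lists (38, 28 and 24 without it), and 2242, 1809 and 576 of all genes (5485, 4689 and 2423 without it). With limma on log2(FPKM + 1) or log2(FPKM + 0.1), members called in 5C against DMSO came to 2 and 3, in 3C against DMSO to 1 and 1, and in 5C against 3C to 0 and 0 (1 and 1 at unadjusted p under 0.05; DESeq2 and edgeR 1 each), list genes in 5C against 3C to 15 and 13, and all genes there to 1533 and 1501. Leaving out 1 library gave 2 to 3, 1 to 4 and 0 to 1 members, 31 to 35, 19 to 28 and 7 to 29 list genes and 4033 to 5029, 2944 to 4504 and 1062 to 2812 of all genes; the lone library of a group is then assumed to vary like the others. On deposited FPKM, which are divided by gene length, the log2 ratio of Dbp to Arntl was -1.40 in DMSO, -0.57 in 3C and -0.61 in 5C, that of Per1 to Clock 1.43, 1.46 and 1.67, and that of Dbp to Nfil3 in 5C -2.87. Over all genes, samples with the same replicate number did not deviate together (r = -0.0306 for DMSO and 3C, 0.000683 for DMSO and 5C, 0.0161 for 3C and 5C). With 2 libraries a group this cannot exclude a pairing, and the labels do not give one. With a replicate block 3, 3 and 1 members, 38, 29 and 24 list genes, and 5235, 4541 and 2284 of all genes passed. The low counts of Hlf in DMSO limit the precision of its fold.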

Other observations

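Glucocorticoid response genes, a second pathway known to reach Per1, moved in both directions. Over all genes 28.7% were called in 5C against DMSO, 24.5% in 3C against DMSO and 12.7% between the cocktails. Of 7 genes, in 5C against DMSO 1 rose, 3 fell and 3 did not pass (median -0.04), in 3C against DMSO 2 rose, 2 fell and 3 did not pass (median -0.09), and in 5C against 3C 0 rose, 3 fell and 4 did not pass (median -0.16). Those that fell in 5C were Tsc22d3, which encodes GILZ (-0.73, adjusted p = 0.00015), the chaperone gene Fkbp5 (-0.74, adjusted p = 0.000179) and the phosphatase gene Dusp1 (-1.05, adjusted p = 6.9e-06), and Errfi1, a feedback inhibitor of EGF receptor signalling, rose (1.18, adjusted p = 1.02e-05). In 3C, Fkbp5 (-0.39, adjusted p = 0.00758) and Dusp1 (-0.74, adjusted p = 6.91e-05) fell, and Errfi1 (1.26, adjusted p = 1.12e-05) and Zbtb16 (0.39, adjusted p = 0.03) rose. In 5C against 3C, Tsc22d3 (-0.56, adjusted p = 0.00254), Fkbp5 (-0.34, adjusted p = 0.0275) and Dusp1 (-0.31, adjusted p = 0.0192) were lower. Zbtb16 also passed in 5C without DMSO replicate 1 (adjusted p = 0.027). Sgk1 and Klf9 did not pass in any comparison. Lost with 1 library left out were, in 3C against DMSO, Fkbp5 without either 3C library (adjusted p 0.0634 to 0.0676) and Zbtb16 without DMSO replicate 2 or either 3C library (adjusted p 0.0733 to 0.186), and in 5C against 3C, Fkbp5 without either 3C library or 5C replicate 1 (adjusted p 0.139 to 0.164) and Dusp1 without either 3C library or either 5C library (adjusted p 0.0693 to 0.196).

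Of 8 other bZIP factors 6 were tested. In 5C against DMSO 2 rose, 2 fell and 2 did not pass (median 0.06), in 3C against DMSO 1 rose, 1 fell and 4 did not pass (median -0.11), and in 5C against 3C 1 rose, 1 fell and 4 did not pass (median 0.09). The shares of all genes called were 28.7%, 24.5% and 12.7% in the same order. Cebpa, a hepatocyte master regulator, fell in 5C (-0.57, adjusted p = 0.00026) and Cebpb, an acute-phase regulator, rose (0.47, adjusted p = 0.00389), and the same held in 5C against 3C (-0.45, adjusted p = 0.00337 and 0.34, adjusted p = 0.0369). Atf5 rose in 5C (0.70, adjusted p = 0.000277) and in 3C (0.68, adjusted p = 0.000398), and Cebpg fell in both (-0.31, adjusted p = 0.00856 and -0.24, adjusted p = 0.0315). Some calls ended with 1 library left out, namely, in 5C against DMSO, Cebpg without 5C replicate 1 (adjusted p = 0.0541), in 3C against DMSO, Cebpg without DMSO replicate 1 or either 3C library (adjusted p 0.115 to 0.255), and in 5C against 3C, Cebpa without 3C replicate 1 (adjusted p = 0.0556) and Cebpb without either 3C library or 5C replicate 1 (adjusted p 0.183 to 0.208). Cebpd and Atf4 did not pass in any comparison, apart from Cebpd higher in 5C than in 3C without DMSO replicate 1 (adjusted p = 0.0499) and Atf4 lower in 3C without DMSO replicate 1 (adjusted p = 0.0419), and the entry under the symbol Ddit3 and Cebpe were not tested.

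The genes whose log2 CPM over the 6 libraries lay closest to that of 3 members, by Pearson's r among genes averaging at least 10 CPM, were Ppp2r2d (0.982), Asrgl1 (0.980), Tctn1 (0.974) for Dbp, Rspry1 (0.991), Trip4 (0.984), Gxylt1 (0.982) for Per1 and Txndc5 (0.997), Bag5 (0.997), Gata4 (0.996) for Nfil3. These libraries fall into 3 groups of 2, so the values describe a shared group pattern.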
